A study of Mus musculus with 2 samples.

Results

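SMC proteins are long coiled-coil ATPases that act on chromosomes as pairs inside ring-shaped complexes. *Smc1a* and *Smc3* encode the pair of cohesin, which holds sister chromatids together and folds interphase chromatin into loops. *Smc2* and *Smc4* encode the pair of the condensins, which compact chromosomes for mitosis, and *Smc5* and *Smc6* encode the pair of the SMC5/6 complex of DNA repair. *Rad21* encodes the cleavable subunit that closes the cohesin ring, *Stag1* and *Stag2* encode alternative cohesin subunits, and *Ncapd2* encodes a HEAT-repeat subunit of condensin I. These 10 genes were described in liver RNA. They were taken by their symbols from the 45777 genes of the deposited transcript table, in which they hold 52 of 129299 RefSeq transcripts. The group was chosen by the read counts of *Smc2*, which had a large ratio between these same libraries, so that the ratios of the members are given as a description, with no test.

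The livers came from C57BL/6 mice on a high-fat diet (HFD). According to the methods of the study, the HFD lasted 18 weeks, and the virus, AAV-GFP in the control group or AAV-*Wee1-AS*, was injected at 13 weeks of diet into mice that were 7 weeks old at its start. Both groups therefore shared the diet, the virus and the injection, and differed in the RNA that the virus delivered, GFP or *Wee1-AS*, a long noncoding RNA antisense to *Wee1*. The retro-orbital route was used. The vector carried the CMV promoter in the AAV9 serotype, which is not restricted to hepatocytes. There was 1 library of poly-A RNA per group, although the design text of the series mentions 4 liver samples. Whether a library pools mice is not given in the sources used here, and no spread between mice could be estimated.

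Depth, as the sum of estimated counts, was 55466182 with AAV-GFP and 48079335 with AAV-*Wee1-AS*. The liver marker *Alb* had 37459 and 53289 TPM with AAV-GFP and AAV-*Wee1-AS*. Of the 8 hepatocyte markers listed, *Alb* included, 3 had a log2 ratio above 0 and 5 below. TPM is a level per length that sums to the same total in every library. In bulk tissue, fewer cells of a type and less RNA per cell cannot be told apart. Across the 15109 genes with a GC value, the log2 ratio between the libraries followed GC content (Spearman coefficient -0.67) and the length of the longest transcript (0.37). Genes are not independent replicates, and these coefficients describe the same 2 libraries. The ratios of the members are therefore also given with both trends removed.

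The coding sequences of the 6 SMC genes are shown around the same element, because base composition is the property that the ratios between the libraries followed. The element is the 8 codons of the ATP-binding loop, the Walker A motif. Its amino acid pattern, GxxGxGK and then S or T, was searched in the reading frame of the longest coding transcript of GENCODE. It was found 1 time in each gene. Each run of 90 bases is read 5′ to 3′ on the coding strand of mm10 with 33 bases on each side, and the capitals mark the 24 bases of the loop. The loops lie at chr4:52440349-52440372 for *Smc2* (plus strand), chr3:69007947-69007970 for *Smc4* (plus strand), chr19:53613817-53613840 for *Smc3* (plus strand) and chr19:23268793-23268816 for *Smc5* (minus strand). An intron divides the loop codons of *Smc1a* (chrX:152016625-152022753, plus strand) and *Smc6* (chr12:11274099-11276270, plus strand).
Smc1a: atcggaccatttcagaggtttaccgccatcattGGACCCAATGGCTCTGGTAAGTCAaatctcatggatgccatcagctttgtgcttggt
Smc3: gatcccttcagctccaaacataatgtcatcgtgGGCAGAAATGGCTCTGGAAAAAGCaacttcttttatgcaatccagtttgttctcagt
Smc2: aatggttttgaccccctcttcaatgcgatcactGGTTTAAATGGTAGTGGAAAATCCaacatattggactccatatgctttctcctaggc
Smc4: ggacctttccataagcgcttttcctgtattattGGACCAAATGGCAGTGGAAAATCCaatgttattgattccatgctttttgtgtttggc
Smc5: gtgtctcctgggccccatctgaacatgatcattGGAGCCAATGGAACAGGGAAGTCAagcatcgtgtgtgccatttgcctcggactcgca
Smc6: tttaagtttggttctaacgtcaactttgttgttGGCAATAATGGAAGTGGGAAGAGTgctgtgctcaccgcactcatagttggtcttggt

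The loop is written with different codons in the paralogs. The GC content of the 90 bases shown was highest in *Smc5*, at 54.4%, followed by 47.8% in *Smc1a*, and lowest in *Smc4*, at 40%. This order is not that of the whole coding sequences. Over the whole coding sequence, the GC content was 38.6% in *Smc4*, 38.8% in *Smc6*, 40.9% in *Smc2*, 42.6% in *Smc3*, 42.7% in *Smc5* and 47.6% in *Smc1a*. The range was wider at the third codon position, from 33.7% in *Smc6* to 57.1% in *Smc1a*. Among the other members, it was 39.1% in *Stag1*, 39.3% in *Stag2*, 51.1% in *Rad21* and 61.7% in *Ncapd2*. *Ncapd2* was thus the member richest in GC, and it was also the only member that was lower with AAV-*Wee1-AS*.

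Of the 10 members, 9 lay above 2-fold in the AAV-*Wee1-AS* library, and *Ncapd2* was lower by less than 2-fold. All 10 had at least 10 counts in a library, the filter on low counts. Among all 15857 genes past this filter, 22.2% were more than 2-fold higher and 8.71% were below 0.5-fold. The median log2 ratio was 2.18 over the members and -0.02 over all genes. The 95% counting interval lay wholly above 2-fold for 7 members, against 16.0% of all genes. It covers counting error at most, takes the estimated counts as independent counts, and may be too narrow. After removal of the GC and length trends, 1 member, *Smc2*, was past 2-fold, against 7.06% of all genes on the higher side. The median of the members was then 0.62, and 9 of the 10, *Smc2* among them, were above 0, as were 7520 of all 15109 genes, whose median was -0.0031.

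**Figure D1:**
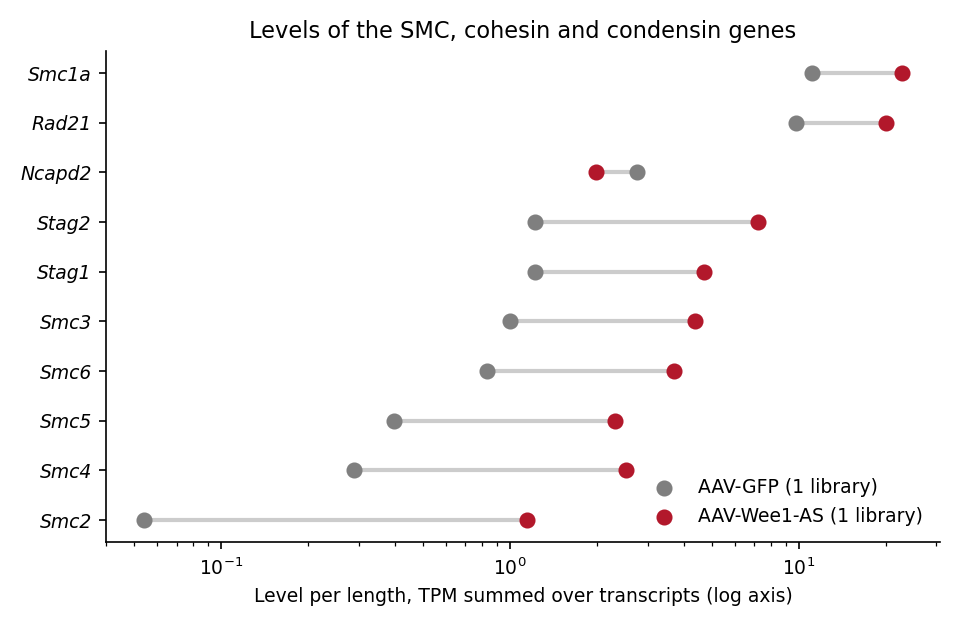
Level per length of the 10 genes, as TPM summed over transcripts on a log axis, in the AAV-GFP library (grey) and the AAV-*Wee1-AS* library (red), with a line joining the 2 values of a gene. *Smc2* is the lowest gene in both libraries with 0.0541 and 1.15 TPM, and *Ncapd2* is the only gene whose red point lies to the left.

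In the condensins, *Smc2* (chromosome 4, 52439221 to 52488365) had 10 counts with AAV-GFP and 177 with AAV-*Wee1-AS*, a log2 ratio of 4.14 (95% counting interval 3.50 to 5.49). The control value is thus at the limit of the filter on low counts. Of all genes past the filter, 23 had a larger log2 ratio. With both trends removed, the log2 ratio of *Smc2* was 2.61, and 81 of 15109 genes had a larger one. *Smc4* (chromosome 3, 69004738 to 69034623) had 81 and 319 counts, a log2 ratio of 2.21 (1.89 to 2.61), which was 0.47 with the trends removed. The length used for *Smc4*, 8459 bases, is that of XM_030252814, which held 43 of 319 counts with AAV-*Wee1-AS*. The transcript with the most counts in that library, NM_133786, has 4316 bases. The partners had nearly the same GC content over the longest transcript, 39.7% in *Smc2* and 40.2% in *Smc4*.

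*Ncapd2* (chromosome 6, 125168007 to 125192100) had 404 and 251 counts, a log2 ratio of -0.42 (-0.66 to -0.19). The interval lay wholly below 0, and the value with the trends removed was -0.20. In the AAV-GFP library, *Ncapd2* was the third most abundant member per length with 2.74 TPM, whereas in the AAV-*Wee1-AS* library it was the ninth with 1.99 TPM. *Smc2*, an SMC subunit of the same complex, was the least abundant in both.

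In cohesin, *Smc1a* (chromosome X, 152016428 to 152061973) had 1451 and 2523 counts, a log2 ratio of 1.06 (0.97 to 1.16), and *Rad21* (chromosome 15, 51962604 to 51993538) had 1159 and 2031, a log2 ratio of 1.07 (0.97 to 1.18). These were the most abundant members per length in both libraries, at 11.1 and 22.8 TPM for *Smc1a* and 9.75 and 20.1 TPM for *Rad21*. They lay closest to 2-fold of the members past it. With libraries scaled by the upper quartile, both were under 2-fold, at log2 ratios of 0.85 and 0.87, and with the trends removed the values were 0.53 and 0.22. *Smc3* (chromosome 19, 53600396 to 53645831), with a single annotated transcript, had 160 and 595 counts. Its log2 ratio was 2.14 (1.90 to 2.42), and 0.88 with the trends removed.

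The alternative subunits of cohesin had like levels per length in the AAV-GFP library, 1.22 TPM each. *Stag2* (chromosome X, 42149297 to 42277186) had 248 counts there and 1203 in the AAV-*Wee1-AS* library, a log2 ratio of 2.53 (2.34 to 2.74). *Stag1* (chromosome 9, 100597709 to 100958544) had 274 and 814 counts, a log2 ratio of 1.83 (1.64 to 2.04). With AAV-*Wee1-AS*, the level per length was 7.20 TPM for *Stag2* and 4.70 TPM for *Stag1*. With the trends removed, the log2 ratios were 0.77 for *Stag2* and 0.07 for *Stag1*. The length used for *Stag1*, 12687 bases, is that of XM_006510923, which held 57 of 274 counts with AAV-GFP and 0 of 814 with AAV-*Wee1-AS*, whereas NM_009282, with the most counts, has 6185 bases.

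In the SMC5/6 complex, *Smc5* (chromosome 19, 23206441 to 23273922) had 79 and 373 counts, a log2 ratio of 2.47 (2.15 to 2.87). *Smc6* (chromosome 12, 11265886 to 11319785) had 136 and 532 counts, a log2 ratio of 2.21 (1.96 to 2.51). With the trends removed, the values were 0.86 and 0.72. The partners thus had overlapping intervals, as did *Smc4* with both of them.

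The genes with a GC value were also binned by that value into 10 groups of like size. *Smc2*, *Smc4*, *Smc5*, *Smc6* and *Stag2* fell in the lowest of these. Of the genes of that group, 65.2% had a ratio above 2, and their median log2 ratio was 1.43. *Smc3* and *Stag1* fell in the next group, in which 56.0% of genes were more than 2-fold higher and the median was 1.13. *Rad21* was in the third group (38.1%, median 0.72) and *Smc1a* in the fourth (27.7%, median 0.48). *Ncapd2* was in the eighth group, in which 2.12% were more than 2-fold higher and the median was -0.50. All 10 members lay above the median of their group, by 0.07 for *Ncapd2* and by 2.71 for *Smc2*. What part base composition had in these ratios was not tested, since the study's groups and the libraries cannot be told apart.

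**Figure D2:**
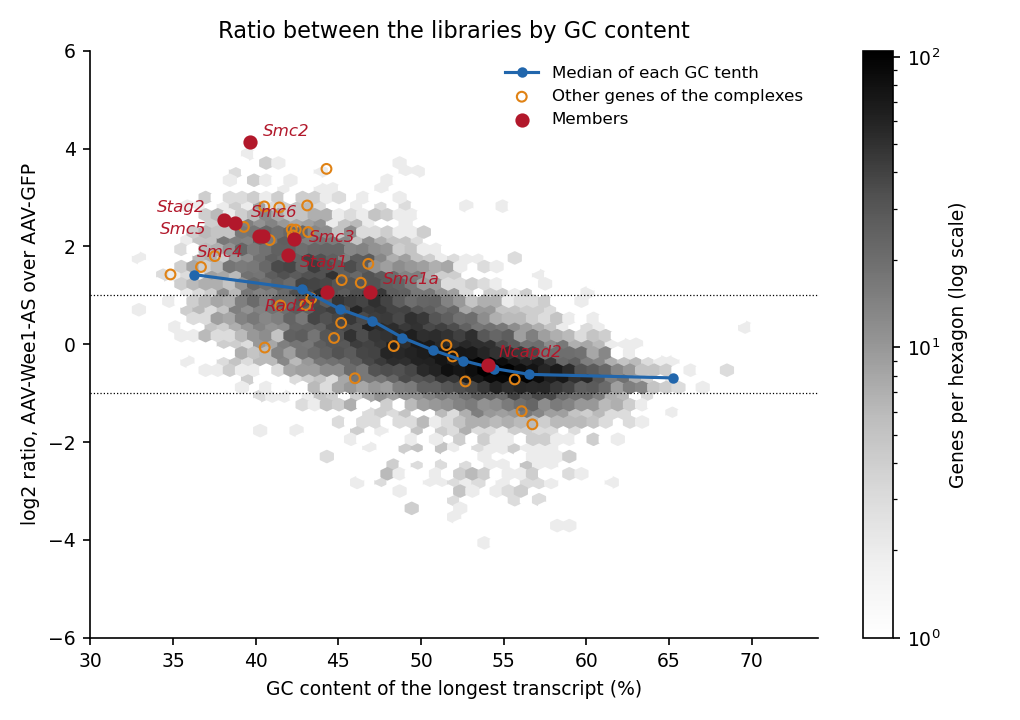
Log2 ratio (AAV-*Wee1-AS* over AAV-GFP) against the GC content of the longest transcript for all genes with a GC value (grey hexagons, shaded by the number of genes, with genes beyond the axis not drawn), with the median of each of the 10 GC groups in blue. The 9 members past 2-fold (red) lie at GC contents of 38.1% to 46.9%, *Smc2* lies farthest above it, and *Ncapd2* lies near it at 54.0%.

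The ratio of partner subunits within a library does not depend on how the libraries were scaled. The level per length of *Smc1a* was 11.1 times that of *Smc3* in the AAV-GFP library and 5.18 times in the AAV-*Wee1-AS* library. In counts, the ratio of *Smc1a* to *Smc3* with AAV-*Wee1-AS* was 0.468 times that with AAV-GFP (exact 95% counting interval 0.386 to 0.565). The transcripts of this pair differ in GC content, with 46.9% in *Smc1a* and 42.3% in *Smc3*, and their log2 ratios differed by -0.36 with the trends removed. *Smc2* had 0.187 times the level of *Smc4* with AAV-GFP and 0.456 times with AAV-*Wee1-AS*, and the ratio of their counts differed by a factor of 4.49 (2.24 to 9.96), with a log2 difference of 2.14 once the trends were removed. For *Smc5* and *Smc6*, the factor was 1.21 (0.879 to 1.66), an interval that includes 1, and the log2 difference with the trends removed was 0.14. The ratio of *Stag1* to *Stag2* differed by a factor of 0.613 (0.502 to 0.747), or -0.70 as a log2 difference without the trends. The factor of the condensin pair rests on the counts of *Smc2* that chose the group, and it was 2.43 per length, against 0.466 for *Smc1a* and *Smc3*.

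The estimated counts of a gene are shares assigned to its RefSeq transcripts, and for several members these shares differed between the libraries. The transcript with the most counts differed between the libraries in 5 of the 9 members with more than 1 transcript. It differed in 24.5% of the 9964 genes with more than 1 transcript and 10 or more counts in each library. These members had 10 to 274 counts in the AAV-GFP library, and among the 3993 genes with 10 to 300 counts there, limits chosen after the values were seen, it differed in 33.98%.

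For *Stag2*, which has 13 transcripts, NM_021465 held 825 of 1203 counts with AAV-*Wee1-AS* and was listed at 0 with AAV-GFP, where XM_030251277 held 211 of 248 counts and was in turn listed at 0 with AAV-*Wee1-AS*. For *Stag1*, NM_009282 was listed at 0 and 628 counts, and NM_001357264 at 186 and 107. For *Smc5*, XM_006526981 was listed at 0 and 291 counts, whereas the transcript with the most counts in AAV-GFP, NM_153808, had 28 and 10. All 81 counts of *Smc4* in AAV-GFP were assigned to XM_030252814, which starts inside the gene at 69009907 and had 43 counts with AAV-*Wee1-AS*, while NM_133786 had 0 and 241. For *Smc2*, NM_001301412 had 10 and 79 counts and NM_008017, of nearly the same length, had 0 and 98. The gene totals of these 5 members were higher in the AAV-*Wee1-AS* library in each case, while their transcripts lay on both sides, except in *Smc2*, where both transcripts had more counts.

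**Figure D3:**
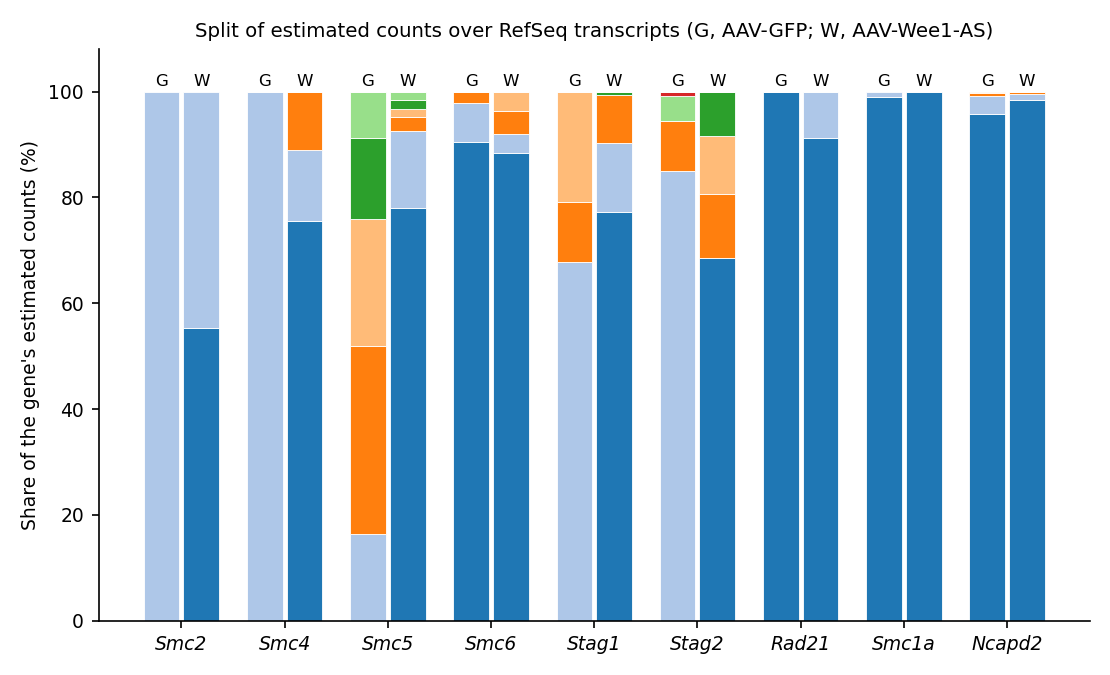
Share of a member's estimated counts assigned to each of its RefSeq transcripts, in percent, with AAV-GFP (G) and AAV-*Wee1-AS* (W) side by side. Within a gene, a color is the same transcript in both bars, and dark blue is the transcript with the most counts over both libraries. In *Smc2*, *Smc4*, *Smc5*, *Stag1* and *Stag2*, dark blue is absent with AAV-GFP and holds 55.4% to 78.0% with AAV-*Wee1-AS*.

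The other genes of these complexes and their regulators were taken from a list of 34, of which 30 passed the filter on low counts. More than 2-fold higher were 16 of them, and 2 were below 0.5-fold, against 22.2% and 8.71% of all genes. The 16 include *Ncapg2*, *Ncapg* and *Sgo2a*, which passed the filter through the AAV-*Wee1-AS* library alone, where they were higher. With 10 counts or more required in both libraries, 13 of 26 were more than 2-fold higher and 2 were below 0.5-fold. Among all 14412 genes with such counts, 3008 were more than 2-fold higher and 884 were below 0.5-fold. The interval lay wholly above 2-fold for 14 and wholly below 0.5-fold for 1, *Rec8*, against 16.0% and 3.72% of all genes. *Ncapg2* and *Sgo2a* are among these 14. With the trends removed, 4 were more than 2-fold higher and 3 were below 0.5-fold, against 7.06% and 7.69% of all genes. Nothing is read from the count of 4, which includes *Ncapg2* and *Sgo2a* beside *Wapl* and *Slf2*. The median log2 ratio of the list then moved from 1.28 to 0.28. *Rec8* was then no longer below 0.5-fold, and the 3 genes below it were *Espl1*, *Pttg1* and *Nsmce4a*.

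Among the remaining condensin subunits, *Ncapg2* and *Ncapd3*, which belong to condensin II, were higher with AAV-*Wee1-AS*. *Ncapg2* had 8 and 100 counts, a log2 ratio of 3.59 (2.87 to 5.16), and 2.37 with the trends removed. *Ncapd3* had 111 and 293 counts, a log2 ratio of 1.64 (1.34 to 1.99), and 0.81 with the trends removed. Another subunit of condensin II, *Ncaph2*, was lower, with 6312 and 3195 counts and a log2 ratio of -0.72 (-0.78 to -0.66). Of the condensin I subunits, *Ncaph* had 85 and 69 counts (-0.04, interval -0.52 to 0.44) and *Ncapg* had 8 and 21 (1.43, interval 0.42 to 3.04). With the trends removed, *Ncaph2*, *Ncaph* and *Ncapg* were at -0.21, -0.18 and -0.10. *Ncapg2* and *Ncapg* passed the filter on low counts through the AAV-*Wee1-AS* library alone, where they had more counts. They are part of the counts of the list given above, and no contrast between the condensins is drawn from them.

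Within the condensins, the ratio of *Ncapd3* to its condensin I counterpart *Ncapd2* differed by a factor of 4.24 (3.22 to 5.62), between transcripts with GC contents of 46.8% and 54.0%. Their log2 ratios differed by 1.01 with the trends removed. The ratio of *Ncaph2* to *Ncaph* differed by a factor of 0.624 (0.447 to 0.872), between GC contents of 55.7% and 48.3%, and their log2 ratios differed by -0.04 with the trends removed.

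Among the genes that load cohesin on chromatin or release it, *Wapl*, the releasing factor, had 347 and 2020 counts, a log2 ratio of 2.80 (2.64 to 2.97), and 1.30 with the trends removed. *Nipbl*, which encodes the loader, had 201 and 857 counts and a log2 ratio of 2.34 (2.13 to 2.58), whereas *Mau2*, the partner of the loader, had 1396 and 979 counts and a log2 ratio of -0.25 (-0.37 to -0.13). *Pds5a* and *Pds5b*, which act with *Wapl*, had log2 ratios of 2.29 (2.14 to 2.46) and 2.13 (1.89 to 2.40). The values of *Nipbl*, *Pds5a* and *Pds5b* with the trends removed were 0.69, 0.79 and 0.50, and that of *Mau2* was -0.54. *Cdca5*, which encodes the protector of mitotic cohesion sororin, had 51 and 42 counts. Its log2 ratio was -0.02 (-0.64 to 0.60), and 0.35 with the trends removed. The GC content was 51.9% for *Mau2* and 40.8% to 43.2% for *Wapl*, *Nipbl*, *Pds5a* and *Pds5b*.

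*Esco1*, an acetyltransferase of cohesin, had 41 and 188 counts and a log2 ratio of 2.40 (1.97 to 2.99), or 0.79 with the trends removed. The shugoshin gene *Sgo2a*, whose product protects centromeric cohesin, was listed at 0 and 11 counts, so that the counting interval of its log2 ratio began at 1.59 and had no upper limit. *Espl1*, which encodes the protease separase that cleaves cohesin, had 53 and 16 counts and a log2 ratio of -1.37 (-2.37 to -0.64). *Pttg1*, which encodes its inhibitor securin, had 1773 and 912 counts and a log2 ratio of -0.69 (-0.81 to -0.58). With the trends removed, the values were -1.27 for *Espl1* and -1.06 for *Pttg1*. The other genes of this list were *Hdac8*, a deacetylase of cohesin, *Sgo1* and *Esco2*, with log2 ratios of 0.80, 0.79 and 1.58. *Hdac8* and *Sgo1* turned to -0.88 and -0.52 with the trends removed, and *Esco2* was at 0.25. The median of the 7 genes turned from 0.80 to -0.52, which is the value of *Sgo1*. *Sgo1* had 6 and 10 counts, and the interval of its log2 ratio of 0.79 was -0.60 to 2.74. Like *Sgo2a*, it passed the filter on low counts through the AAV-*Wee1-AS* library alone, and no direction is read from this median.

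*Ctcf*, whose product stops cohesin at the borders of chromatin loops, had 612 and 1222 counts and a log2 ratio of 1.26 (1.12 to 1.40), or 0.58 with the trends removed. Of the meiotic cohesin genes, *Rec8* had 180 and 47 counts and a log2 ratio of -1.64 (-2.17 to -1.20), or -0.90 with the trends removed, *Smc1b* was listed at 0 and 9 counts and did not pass the filter, and *Rad21l* and *Stag3* were listed at 0 in both libraries. In the SMC5/6 complex, the recruitment factors *Slf2* and *Slf1* had log2 ratios of 2.84 (2.54 to 3.20) and 1.80 (1.10 to 2.85), or 1.43 and 0.30 with the trends removed. The small subunits were not past 2-fold, with log2 ratios of -0.76 for *Nsmce1*, 0.44 for *Nsmce2*, 0.13 for *Nsmce3* and -0.07 for *Nsmce4a*, and with the trends removed all 4 were below 0, at -0.35, -0.15, -0.37 and -1.02. *Smchd1* and *Rad50*, which encode ATPases related to the SMC proteins, had log2 ratios of 2.23 (1.96 to 2.53) and 1.31 (1.05 to 1.60), and neither was past 2-fold with the trends removed, at 0.75 and 0.39. Of the topoisomerases that untangle chromosomes, *Top2b* had 298 and 1271 counts (2.35, interval 2.17 to 2.54), and *Top2a*, the form of dividing cells, had 86 and 139 (0.94, interval 0.56 to 1.36). The direction of *Top2a* turned with the trends removed, to -0.24, while *Top2b* was at 0.99.

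**Figure D4:**
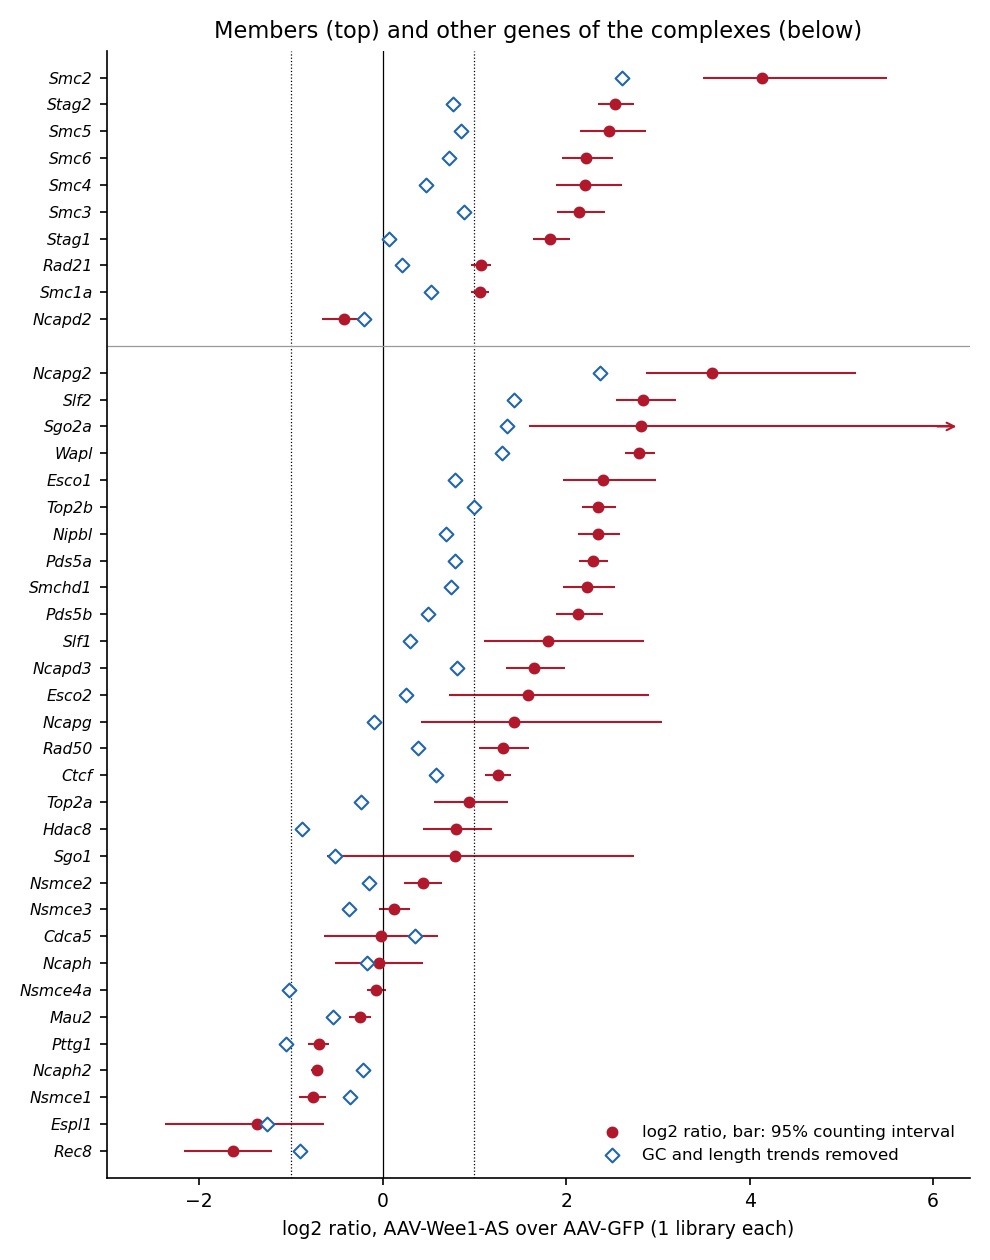
Log2 ratio (AAV-*Wee1-AS* over AAV-GFP) for the 10 members (top) and the 30 other genes of the complexes past the filter (below), with the 95% counting interval as a bar (red), and the value with the GC and length trends removed (blue diamonds). Dotted lines mark 2-fold, and the arrow marks an interval with no upper limit. The diamonds of all 10 members lie nearer to 0 than their red points.

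Condensin genes are known as genes of dividing cells, and the proliferation markers were therefore set beside them. Of 26 markers, 25 passed the filter, 2 were more than 2-fold higher and 4 were below 0.5-fold, against 22.2% and 8.71% of all genes, and the median log2 ratio was -0.09. Their summed level was 115 TPM with AAV-GFP and 110.2 TPM with AAV-*Wee1-AS*, *Bub1* was listed at 0 in both libraries, and the defining marker *Mki67* had 67 and 135 counts. *Ccnb1* had 57 and 23 counts and *Aurkb* had 87 and 20. The list went both ways, with 11 markers above 0 and 14 below, and the most abundant marker in its sum was *Pcna* with 31.8 and 35.6 TPM. With the trends removed, 9 were above 0 and 16 below, the median was -0.27, none was more than 2-fold higher and 4 were below 0.5-fold, against 7.06% and 7.69% of all genes. The part of cell division in the values of *Smc2*, *Smc4* and the other members was not tested. The nuclear-retained RNAs *Malat1*, *Neat1* and *Kcnq1ot1* were all more than 2-fold higher, with a summed level of 3.75 TPM against 42.8 TPM. *Kcnq1ot1* was listed at 0 and 25 counts and passed the filter through the AAV-*Wee1-AS* library alone. With the trends removed, *Malat1*, *Neat1* and *Kcnq1ot1* were at 3.77, 1.75 and 1.69, all still past 2-fold. The part of these RNAs in the values of the members was not tested.

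Among the cell type markers, the summed level was 80662 and 89722 TPM for hepatocyte, 146 and 119 TPM for endothelial, 218 and 205 TPM for Kupffer cell and macrophage, 173 and 154 TPM for stellate, and 44.1 and 37.9 TPM for cholangiocyte genes. It was 5.79 and 4.32 TPM for T and NK cell, 3.91 and 3.14 TPM for B cell and 13.03 and 6.18 TPM for neutrophil genes, with *Ly6g* listed at 0 in both libraries. It was 2037 and 1100.4 TPM for erythroid genes. Of these 9 lists, the hepatocyte list was the only one with a higher sum in the AAV-*Wee1-AS* library, and without *Alb* its sum was lower too, at 43203 and 36433 TPM. The sums are led by abundant genes, and single markers went the other way, such as *Marco* and *Vsig4* of the macrophage list with log2 ratios of 1.60 and 1.52 and *Lrat* of the stellate list with 1.46. The direction of 5 of the 9 lists turned with the trends removed. The median log2 ratio was then 0.25 instead of -0.10 for hepatocyte, 0.30 instead of -0.18 for cholangiocyte, 0.28 instead of -0.37 for B cell, 0.09 instead of -0.03 for macrophage and 0.11 instead of -0.89 for erythroid genes. It stayed below 0 for endothelial, stellate, T and NK cell and neutrophil genes, at -0.17, -0.32, -0.22 and -1.49. The part of the cell makeup in the values of the members was not tested.

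The promoters of *Smc2*, the member with the largest ratio, and *Ncapd2*, the member below 0, are shown because the genes encode subunits of the same complex. RefSeq promoter sequences of build GRCm38.p6, 250 bases before to 50 after the start, were matched for 7 members. Capitals mark CCAAT, the box of NF-Y, TTTGAA, the cell cycle homology element of mitotic genes, and TTTCCCGC and TTTGGCGC, forms of the E2F site, each searched on both strands. Read 5′ to 3′ on the strand of the gene, they lie at chr4:52438971-52439270 (plus strand) and chr6:125191537-125191836 (minus strand).
Smc2: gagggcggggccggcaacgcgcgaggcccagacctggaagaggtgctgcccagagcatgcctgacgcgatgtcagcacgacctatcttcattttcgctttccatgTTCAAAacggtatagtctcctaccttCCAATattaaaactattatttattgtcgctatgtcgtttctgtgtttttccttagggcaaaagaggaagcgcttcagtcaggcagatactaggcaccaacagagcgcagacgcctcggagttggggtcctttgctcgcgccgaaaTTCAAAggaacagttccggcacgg
Ncapd2: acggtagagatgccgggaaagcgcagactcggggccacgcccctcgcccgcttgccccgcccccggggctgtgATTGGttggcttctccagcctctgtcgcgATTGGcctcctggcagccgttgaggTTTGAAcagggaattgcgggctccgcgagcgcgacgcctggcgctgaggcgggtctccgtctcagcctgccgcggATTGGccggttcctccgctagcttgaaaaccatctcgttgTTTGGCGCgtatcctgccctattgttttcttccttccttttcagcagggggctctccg

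The *Smc2* promoter held CCAAT 1 time and TTTGAA 2 times. The *Ncapd2* promoter held CCAAT 3 times, TTTGAA 1 time and TTTGGCGC 1 time. Among 32851 promoters of the same length, 37.4% held CCAAT, 17.9% TTTGAA, 1.07% TTTCCCGC and 0.514% TTTGGCGC. CCAAT and TTTCCCGC were each found 1 time in the promoters of *Smc1a* and *Stag1*, and TTTGAA also in that of *Smc6*. The promoter of *Smc3* held none of the 4, which says only that these letters are not in that window. The window of *Smc5* lies at the start of NM_001252685, a transcript with 7 and 6 counts, and was not read further. The GC content of the promoter was 52.7% for *Smc2*, 64.3% for *Ncapd2* and 73.7% for *Stag1*, so that the order of the members by promoter composition differed from that by transcript composition.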

How the data were processed

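Poly-A RNA of mouse liver was sequenced as 1 library per group. For each transcript of build mm10, the authors deposited an estimated count, an FPKM value (fragments per kilobase, scaled to the library) and a TPM value for the AAV-GFP and AAV-*Wee1-AS* libraries. The deposited counts are not normalized, and 97.2% and 97.3% of them equal FPKM times length over a constant, rounded up to whole numbers within 0.01. The submitters' processing notes list Trimmomatic 0.38, HISAT2 2.1.0, SAMtools 1.9 and StringTie 2.1.3b, with no roles. Whether counting used the strand is not given in the sources used here. *Wee1-AS* was not analysed here, and 1 cell type marker is not reported here.

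Counts were summed per symbol and scaled by TMM (edgeR 4.0.16, R 4.3.3), with factors of 1.02 and 0.980. Log2 ratios took a prior count of 2, and genes needed 10 counts or more in at least 1 library. With 1 library per group there is no replicate check, and no p-value is given. Exact (Clopper-Pearson) 95% intervals compare the 2 libraries and not the treatments. They cover counting error at most, and take the estimated counts as independent counts. Estimates assigned to transcripts and PCR copies of a molecule are not independent, so that the intervals may be too narrow. Intervals of the factor between 2 ratios of genes are exact conditional intervals of the odds ratio, with the same limit. GC content came from the longest GENCODE transcript (95.3% of genes), and trends were removed by lowess fits (span 0.3, 5 cycles) with statsmodels 0.14.6 under Python 3.11.15. The scaling, interval and trend steps were tested on simulated data.

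The members, lists and alternatives were chosen with earlier results of these data known. Named were all members, listed genes whose interval was wholly past 2-fold, other listed genes by their values, genes overlapping a member, and the 4 genes with the ratio nearest to that of *Smc2*. The alternatives were 4 other scalings (DESeq2 1.42.0 size factors among them), 3 other filters, a prior count of 0.5, FPKM or TPM with a pseudocount of 1, either trend removal, and the most abundant transcript alone.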

Additional observations from a re-analysis of the deposited data

How the results depend on the processing

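The count of members past 2-fold was 9, and it was 4 with FPKM values and a pseudocount of 1 and 1 with the GC and length trends removed. The count over all genes fell as well. More than 2-fold higher were 3527 of 15857 genes, 1029 of 15857 with FPKM values and 1066 of 15109 with both trends removed. The median log2 ratio of the members, 2.18, was 0.94 with FPKM values, 0.62 with both trends removed and 3.98 with the most abundant transcript alone. In that setting, the transcript with the most counts over both libraries stood for its gene. In *Smc2*, *Smc4*, *Smc5*, *Stag1* and *Stag2*, this transcript was listed at 0 with AAV-GFP. Their log2 ratios were then 5.78 to 8.83, and the median of 3.98 rests on these splits over transcripts. Of the 30 other genes of the complexes, 18 were past 2-fold in either direction, against 4 with FPKM values, 9 with TPM values and 7 with both trends removed. Below 0.5-fold were 1381 of all genes, 307 with FPKM values and 1162 with both trends removed. With TPM values, 1608 of all 15857 genes were more than 2-fold higher and 438 were below 0.5-fold. A pseudocount of 1 exceeds the control level of several members, which understates their ratios. The other alternatives gave 6 to 9 members and 15 to 21 other genes past 2-fold. The 6 members were those with the length trend alone removed, when 2701 of all 15857 genes were more than 2-fold higher. The 21 other genes were those with the most abundant transcript alone. Of all 15782 genes, 3706 were then more than 2-fold higher and 2075 were below 0.5-fold. Upper-quartile scaling moved the median of all genes from -0.02 to -0.22. Then 7 members were past 2-fold, and 2938 of all 15857 genes were more than 2-fold higher. The 10 control counts of *Smc2* limit the precision of its log2 ratio. This log2 ratio ranged from 0.62 with FPKM values to 5.78 with the most abundant transcript alone, which was listed at 0 with AAV-GFP. That of *Ncapd2* ranged from -0.79 to -0.20. No ratio of a member changed sign under any of the 13 alternatives. No paired analysis was possible because each group has 1 library.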

Other observations

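The 4 genes whose log2 ratio was nearest to that of *Smc2*, among the 11565 genes that reached 100 counts in either library, were *Eml5* (5 and 104 counts, 4.14), *A630034I12Rik* (6 and 105 counts, 3.97), *Hsd3b5* (228 and 2638 counts, 3.78) and *Serpina3h* (31 and 358 counts, 3.70). Likeness over 2 libraries is a description only. *Eml5* and *A630034I12Rik* passed the filter on low counts through the AAV-*Wee1-AS* library alone. The GC content was 43.0% in *Eml5*, 48.5% in *Hsd3b5* and 51.7% in *Serpina3h*, above that of *Smc2*, and *A630034I12Rik* had no GC value.

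Of the genes annotated in the interval of a member, *Gen1* overlaps the first 144 bases of *Smc6*. It encodes a nuclease that resolves joined chromosomes, and it had 4 and 50 counts, a log2 ratio of 3.33 (95% counting interval 2.46 to 5.84). *Gen1* passed the filter on low counts through the AAV-*Wee1-AS* library alone, and nothing is read from its ratio. *Ribc1* overlaps 459 bases at the start of *Smc1a* and had 40 and 28 counts, and *Gm15267* lies inside *Smc1a* and had 13 and 11. The miRNA genes *Mir15b* and *Mir16-2* lie inside *Smc4* and were listed at 0 in both libraries of poly-A RNA. The *Smc4* transcript that held every AAV-GFP count of the gene starts at 69009907, within the interval of *Mir16-2* (chromosome 3, 69009902 to 69009996).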
